A study of Bos taurus with 10 samples.

Results

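The genes described here carry hexose sugars across membranes or take fructose and sorbitol into metabolism: SLC2A5, SLC2A2, SLC2A1, SLC2A3, SLC2A8, KHK and SORD. They are 7 of 9155 genes that the bovine expression array names by a single symbol, and all of their probe sets were taken, 12 of 24016. A probe set is a group of short probes that reads 1 stretch of a transcript. The genes were picked by name, with the difference between the diets already known for these arrays, so that difference is given below as a description without a test.

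The liver samples came from female Holstein cows in week 5 of lactation. The 20 control cows received a rumen-protected control fat and the 20 CLA cows a rumen-protected fat containing conjugated linoleic acid, a mixture of linoleic acid isomers. Beside the same mixed ration, each cow got 630 g (dry matter) of a supplemental concentrate daily, 27.3% of which was the fat, starting in week 3 before parturition and ending in week 14 of lactation. Each RNA pool came from 4 cows, and 5 control and 5 CLA pools were hybridized, 1 array per pool. The cows were of mixed parity, 2.6 on average, and their ages are not given in the sources used here. A value therefore averages 4 cows, the spread below is one between pools, and single cows cannot be seen.

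Hexoses are too polar to cross a membrane unaided. Facilitative transporters of the SLC2 (GLUT) family let them move down their gradient, and in the liver the low-affinity transporter SLC2A2 also lets out glucose made by the hepatocyte. Fructose is trapped inside the cell by ketohexokinase (KHK), and sorbitol enters the same route through sorbitol dehydrogenase (SORD). Ruminants absorb little sugar, because carbohydrate is fermented in the rumen, so the liver of a lactating cow makes and releases glucose.

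The arrays were alike as a whole. The correlation of any pair of arrays, over all probe sets, lay between 0.988 and 0.996. Array medians did not overlap between the groups, at 5.83 to 5.85 on the log2 scale in control pools and 5.79 to 5.82 in CLA pools (exact two-sided permutation p = 0.00794, the smallest that regrouping the arrays can give). Over all probe sets the median difference, CLA minus control, was -0.018. Limma with Benjamini-Hochberg adjustment called 0 of 24016 probe sets, 0% of those tested, while 2135 (8.89%) had an unadjusted p under 0.05. Hepatocyte markers marked the tissue as liver: 9 of 10 were measured, and their median probe set was brighter than 99.9% of all probe sets. Enterocyte markers, of which 3 of 6 were measured, lay in the dimmer part of the array, with none brighter than 44.9% of the probe sets.

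SLC2A5 encodes GLUT5, a transporter that carries fructose and little glucose and is best known from the small intestine. Its brightest probe set, Bt.19805.1.A1_at, read 7.07, 6.25, 6.41, 8.02 and 7.48 in control pools 1 to 5, in log2 units of expression. In CLA pools 1 to 5 it read 5.41, 4.55, 6.68, 4.66 and 6.80. CLA pools 1, 2 and 4 lay below every control pool, while CLA pools 3 and 5 lay inside the control range, so the groups overlapped. Control pools averaged 7.05 ± 0.74 (SD, n = 5) and CLA pools 5.62 ± 1.08 (SD, n = 5). The difference was -1.43 ± 0.48 SE on the log2 scale, a level 2.69-fold lower in the CLA pools. It was the only one of the 12 probe sets to differ at least 2-fold, against 0.0416% of all probe sets (10 of 24016), and the rule for picking the genes leaves nothing to be read from that. In liver pieces made of several cell types, fewer cells of a type and less RNA per cell cannot be told apart.

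**Figure D1:**
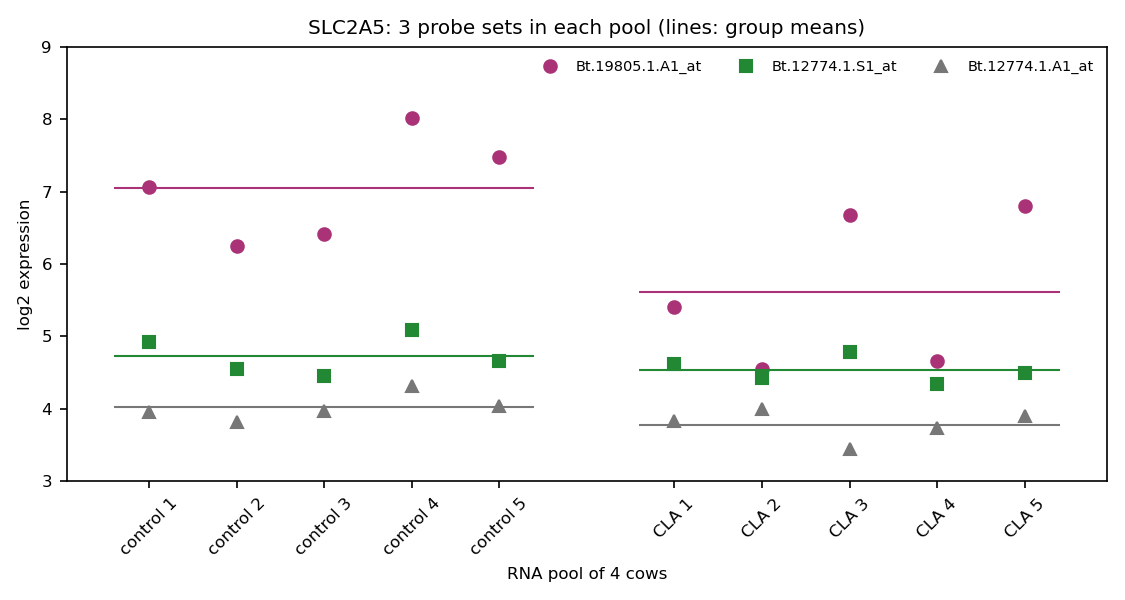
Log2 expression (vertical axis) of the 3 SLC2A5 probe sets in each RNA pool of 4 cows (horizontal axis), with lines at the group means. Bt.19805.1.A1_at runs from 4.55 to 8.02 over the pools, while both other probe sets stay between 3.44 and 5.09.

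The other SLC2A5 probe sets moved much less. Bt.12774.1.S1_at read 4.92, 4.55, 4.45, 5.09 and 4.66 in control pools 1 to 5 and 4.62, 4.42, 4.78, 4.35 and 4.50 in CLA pools 1 to 5. Its difference was -0.20 ± 0.13 SE, with 2 CLA pools below all control pools. Bt.12774.1.A1_at, which lies in the dimmest 30% of the array, read 3.96, 3.82, 3.97, 4.31 and 4.04 in control pools and 3.83, 4.00, 3.44, 3.74 and 3.90 in CLA pools. Its difference was -0.24 ± 0.12 SE. All 3 probe sets of the gene thus had a lower mean in CLA pools, but the smaller differences amount to 1.15-fold and 1.18-fold. The sources used here do not say which part of the transcript, or which strand, each probe set reads.

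The pools of 1 diet also differed widely in SLC2A5. Values of Bt.19805.1.A1_at spanned 1.77 log2 units among control pools and 2.25 among CLA pools. Its SD within groups, 0.92, was larger than that of 99.9% of all probe sets, with 28 above it. Among the probe sets above it were those of the acute phase protein gene HP (SD 1.88), several class I and class II histocompatibility genes such as BOLA-N (SD 1.89), and MT1A, a metallothionein (SD 0.97). Both other SLC2A5 probe sets had an SD of 0.22 and 0.20 within groups. Most probe sets that differed at least 2-fold also spread widely within groups, though FXYD2 had an SD of 0.44. Since the genes were picked with the difference known, nothing is read from the rank of Bt.19805.1.A1_at in spread.

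**Figure D2:**
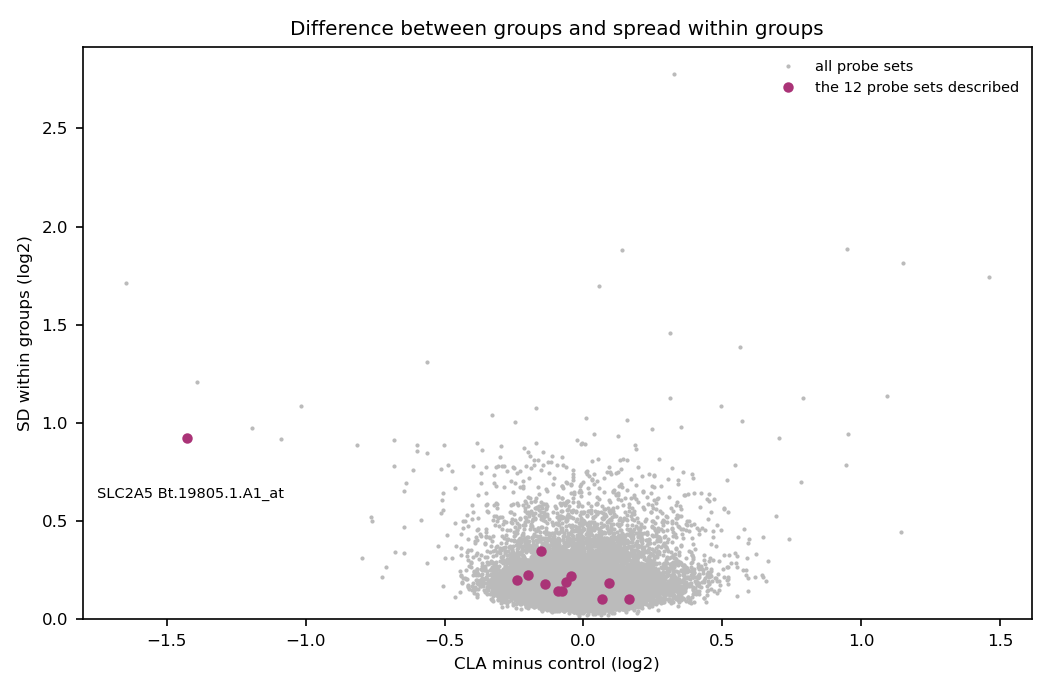
Each point is a probe set: the horizontal axis gives CLA minus control (log2) and the vertical axis the SD within groups (log2), with the 12 probe sets described in purple and all others in grey. SLC2A5 Bt.19805.1.A1_at lies at -1.43 and 0.92, apart from the other 11, whose differences are all under 0.25 in size.

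With group means removed, Bt.19805.1.A1_at followed Bt.12774.1.S1_at over the 10 pools with Pearson's r = 0.698 (exact two-sided permutation p = 0.0259 over reorderings within groups, Benjamini-Hochberg adjusted 0.161 over 7 relations between probe sets of the same gene). Spearman's rho was 0.693 (exact permutation p = 0.0191, adjusted 0.0690), and r was 0.839 without CLA pools 3 and 5, the pools farthest from the median. That relation did not pass the adjusted test. Its r with Bt.12774.1.A1_at was 0.037 (exact permutation p = 0.925, adjusted 0.925; rho 0.030, exact permutation p = 0.951), and 0.677 without the same pools, so that value rests on CLA pools 3 and 5.

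Cell type markers were set beside SLC2A5 in the same way, as the mean log2 level of each of 11 marker lists. The coefficient r ranged from -0.604 for B lymphocytes and plasma cells (4 of 6 markers measured) to 0.600 for enterocytes, the cell type best known for this transporter. The lowest adjusted p for SLC2A5 was 0.482 by exact permutation tests. Benjamini-Hochberg adjustment ran over 39 relations, those of these lists and 2 array measures with SLC2A5, SLC2A2 and KHK. For B lymphocytes rho was -0.636 (exact permutation p = 0.153), and r was -0.635 without CLA pools 3 and 5. For enterocytes rho was 0.612 (exact permutation p = 0.101), and r was 0.252 without those pools. SLC2A5 had r = -0.098 with the array median (exact permutation p = 0.802) and -0.366 with the interquartile range of the array (exact permutation p = 0.355). The enterocyte list averaged 4.06 to 4.24 in control pools and 4.07 to 4.24 in CLA pools. The part of these cells in the SLC2A5 values was not tested.

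By pattern over the 10 pools after removal of group means, the genes most like SLC2A5 among 9154 others were SYBU (r = 0.924), LUC7L (0.902), ABCD4 (0.897), COG2 (0.897) and EXTL1 (0.887). The genes most opposed were C5H12orf75 (r = -0.946), TMEM50A (-0.917) and POLR2G (-0.914). These coefficients were the extremes of a search and carry no p. The like genes varied far less between pools, with an SD within groups of 0.13 to 0.23. Their differences between the diets were also small, from -0.08 to -0.16.

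SLC2A2 encodes GLUT2, the main glucose transporter of hepatocytes, which also carries fructose. Its brighter probe set, Bt.13076.1.S1_at, was brighter than only 43.6% of all probe sets. That probe set read 5.40, 6.13, 5.20, 5.47 and 4.95 in control pools 1 to 5 and 5.44, 5.05, 5.42, 5.45 and 5.03 in CLA pools 1 to 5. Control pools 2 and 5 held both the highest and the lowest value, and every CLA pool lay between them. The difference was -0.15 ± 0.19 SE, and it was 0.02 without control pool 2. The dim probe set Bt.13076.1.A1_at lay between 3.08 and 3.45 in control pools and between 2.97 and 3.34 in CLA pools, a difference of -0.08 ± 0.09 SE.

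**Figure D3:**
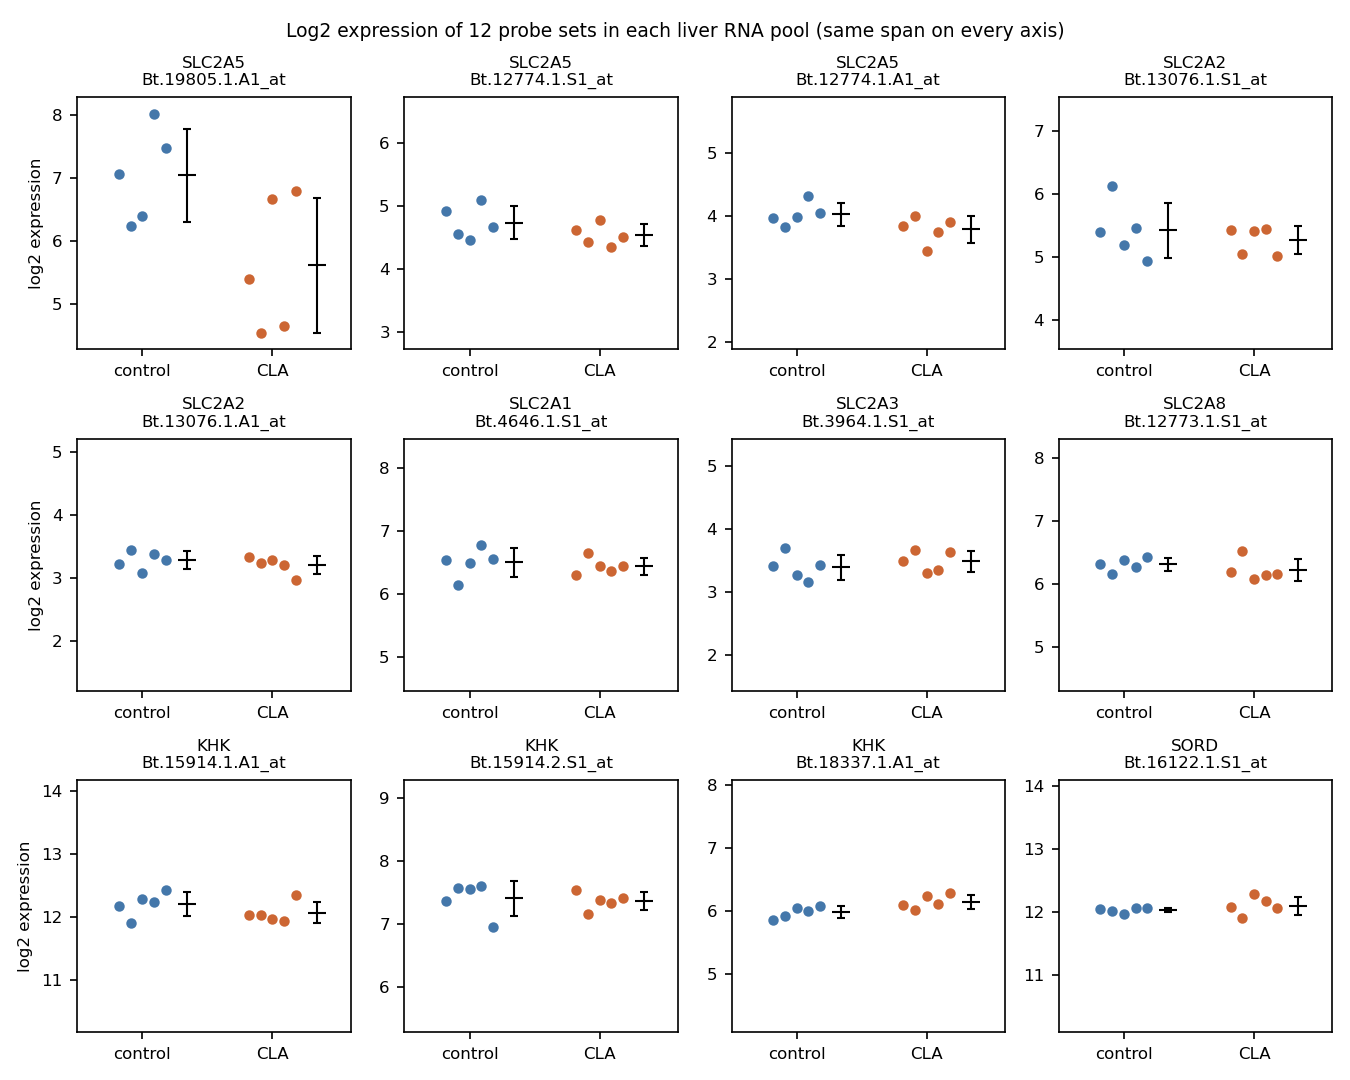
Log2 expression (vertical axes, all with the same span) of the 12 probe sets in 5 control pools (blue) and 5 CLA pools (orange), with the mean and SD of each group in black. The groups overlap in all 12 panels, and only the first panel, SLC2A5 Bt.19805.1.A1_at, fills its axis.

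SLC2A1 encodes GLUT1, which supplies basal glucose to many cell types and is low in hepatocytes. Its probe set Bt.4646.1.S1_at read 6.54, 6.15, 6.50, 6.78 and 6.56 in control pools 1 to 5 and 6.30, 6.66, 6.44, 6.37 and 6.45 in CLA pools 1 to 5. The CLA pools lay inside the control range, with a difference of -0.06 ± 0.11 SE that was 0.0065 without control pool 4. SLC2A3 encodes GLUT3, a high-affinity glucose transporter of neurons and blood cells. Its probe set Bt.3964.1.S1_at, among the dimmest 30% of the array, lay between 3.16 and 3.69 in control pools and between 3.29 and 3.66 in CLA pools, with a difference of 0.09 ± 0.11 SE.

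SLC2A8 encodes GLUT8, a transporter held mostly on membranes inside the cell. Its probe set Bt.12773.1.S1_at read 6.33, 6.16, 6.39, 6.27 and 6.44 in control pools 1 to 5 and 6.20, 6.53, 6.09, 6.15 and 6.17 in CLA pools 1 to 5. CLA pool 2 lay above every other pool, and CLA pools 3 and 4 below every control pool. The difference was -0.09 ± 0.09 SE.

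KHK, ketohexokinase, phosphorylates fructose and so commits it to breakdown. Its brightest probe set, Bt.15914.1.A1_at, was brighter than 98.6% of all probe sets and read 12.17, 11.90, 12.28, 12.23 and 12.43 in control pools 1 to 5. In CLA pools 1 to 5 it read 12.03, 12.03, 11.97, 11.94 and 12.35. CLA pool 5 stood apart from the other CLA pools, and all CLA pools lay inside the control range, with a difference of -0.14 ± 0.11 SE. Bt.15914.2.S1_at lay between 6.95 and 7.61 in control pools and between 7.16 and 7.54 in CLA pools. Its difference was -0.05 ± 0.12 SE and turned to 0.0035 without control pool 4 and 0.0055 without CLA pool 2.

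The third KHK probe set ran the other way. Bt.18337.1.A1_at read 5.86, 5.92, 6.05, 5.99 and 6.08 in control pools 1 to 5 and 6.09, 6.01, 6.24, 6.11 and 6.28 in CLA pools 1 to 5. All but CLA pool 2 lay above every control pool, and the difference was 0.17 ± 0.08 SE. Of the KHK probe sets 2 thus had a lower and 1 a higher mean in CLA pools, all with differences under 0.25 in size. With group means removed, it had r = 0.621 with the brightest probe set (exact permutation p = 0.0690, Benjamini-Hochberg adjusted 0.161; rho 0.584, exact permutation p = 0.0942), which did not pass, and r was 0.416 without CLA pool 5 and control pool 2. Between Bt.15914.2.S1_at and the brightest KHK probe set r was -0.387 (exact permutation p = 0.332, adjusted 0.580; rho -0.109, exact permutation p = 0.788), and -0.608 without the same pools. Between Bt.15914.2.S1_at and Bt.18337.1.A1_at r was -0.064 (exact permutation p = 0.866, adjusted 0.925; rho 0.042, exact permutation p = 0.921), and 0.213 without control pool 5 and CLA pool 2.

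SORD, sorbitol dehydrogenase, turns sorbitol into fructose. Its probe set Bt.16122.1.S1_at, brighter than 98.5% of all probe sets, read 12.05, 12.02, 11.97, 12.06 and 12.06 in control pools 1 to 5 and 12.08, 11.90, 12.28, 12.17 and 12.06 in CLA pools 1 to 5. The control pools lay within 0.09 of each other and the CLA pools within 0.38. CLA pools 1, 3 and 4 lay above the control pools and CLA pool 2 below them, with a difference of 0.07 ± 0.08 SE.

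Of the 12 probe sets, 9 had a lower and 3 a higher mean in CLA pools. Their median difference was -0.083, beside -0.018 over all probe sets, of which 56.2% had a lower mean. The groups did not overlap for 0 of the 12, and over the whole array this held for 473 probe sets, 1.97%. Since the genes were picked with this contrast known, nothing is read from these counts.

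Whether the genes vary together between pools of the same diet was tested, because the choice of genes did not use it. Each gene entered with its brightest probe set and with group means removed, which gave 21 pairs. SLC2A2 and KHK ran opposite to each other: Pearson's r was -0.879 (exact two-sided permutation p = 0.00125 over 14400 reorderings within groups, Benjamini-Hochberg adjusted 0.0263 over the pairs). Spearman's rho was -0.906 (exact permutation p = 0.00111, adjusted 0.0233). Control pool 2 had the highest SLC2A2 and lowest KHK value, and control pool 5 the lowest SLC2A2 and highest KHK value of the 10 pools. Without these 2 pools r was -0.703.

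Whether that relation passed the adjusted test depended on which pools and probe sets entered. With any single pool left out r stayed between -0.940 and -0.776, and a test on fewer pools has fewer reorderings to draw on. The relation passed the adjusted test in 4 of 12 alternatives, with adjusted p from 0.0219 to 0.603. It missed when control pool 2 (r = -0.776), 3 (-0.878) or 5 (-0.836) was left out, and likewise for CLA pool 2 (-0.933), 4 (-0.876) or 5 (-0.940). It also missed after quantile normalization (r = -0.853), and averaging all probe sets of each gene gave r = -0.331. Of the other genes of the array, 0.503% had an r at least as large in size with SLC2A2, and 0.721% with KHK. All 11 marker lists were set beside both genes, and no relation passed the adjusted test. Erythroid markers, of which 5 of 6 were measured, are given because they had the largest coefficient with each gene. Their mean level had r = 0.908 with KHK (exact permutation p = 0.00347, Benjamini-Hochberg adjusted 0.100) and -0.826 with SLC2A2 (exact permutation p = 0.00514, adjusted 0.100). Spearman's rho was 0.802 and -0.830 (exact permutation p = 0.00528 and 0.00813). Without the 2 pools farthest from the median of the gene, r was 0.693 with KHK and -0.725 with SLC2A2. Next for KHK came enterocyte markers, with r = 0.697 (exact permutation p = 0.0422, adjusted 0.420). T and NK lymphocyte markers followed, with r = -0.677 (exact permutation p = 0.0431, adjusted 0.420). The erythroid markers were mostly dim, with their median probe set brighter than 22.6% of all probe sets and none brighter than 52.4%. The erythroid level lay between 4.13 and 4.38 in control pools and between 4.04 and 4.30 in CLA pools, and its part in the relation was not tested.

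**Figure D4:**
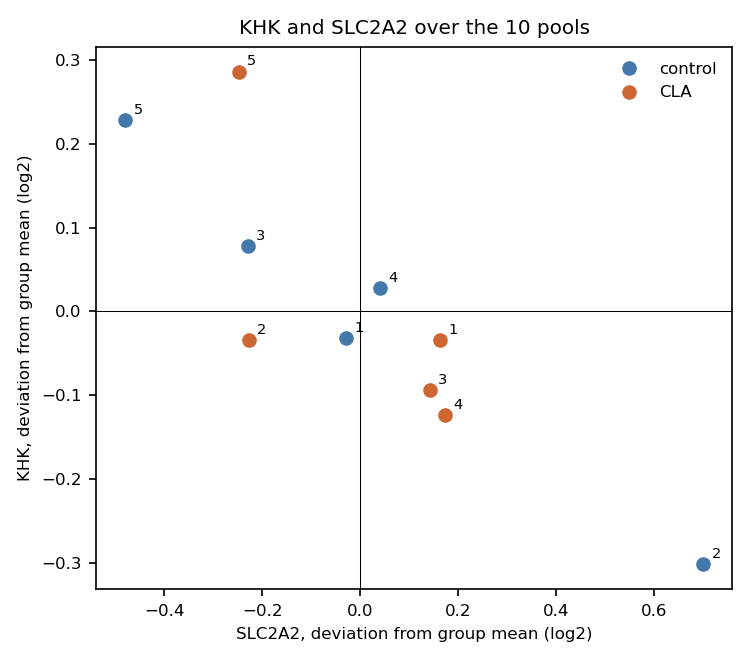
Deviation of each pool from its group mean, in log2 units, for SLC2A2 (horizontal axis, Bt.13076.1.S1_at) and KHK (vertical axis, Bt.15914.1.A1_at), with pool numbers beside the points. The points run from control pool 5 at the upper left to control pool 2 at the lower right, with r = -0.879.

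Of the remaining 20 pairs none passed after adjustment, and 3 of all 21 had an unadjusted p under 0.05. SLC2A2 and SLC2A8 came next, with r = -0.695 (exact permutation p = 0.00528, adjusted 0.0554; rho -0.697, exact permutation p = 0.0387), and -0.633 without control pools 2 and 5. That pair passed the adjusted test without CLA pool 1 (r = -0.695) and without CLA pool 5 (r = -0.781). SLC2A8 and SORD had r = -0.737 (exact permutation p = 0.0419, adjusted 0.268; rho -0.505, exact permutation p = 0.155), and -0.500 when CLA pool 2 and control pool 5 were left out. Without CLA pool 2 alone r was -0.302, and with any other single pool left out it lay between -0.839 and -0.714. SLC2A5 had its largest coefficient with KHK, r = 0.539 (exact permutation p = 0.127, adjusted 0.380; rho 0.553, exact permutation p = 0.0996), and 0.525 without CLA pools 3 and 5.

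The other genes of sugar handling were described through 5 lists of 82 genes, 62 of which were measured, with the brightest probe set of each. None of the 62 passed limma's test with Benjamini-Hochberg adjustment over all probe sets, and 4 (SLC2A6, ENO2, PFKL and MLXIP) had an unadjusted p under 0.05, where 8.49% of all 9155 genes did. Of the 62, 40 had a lower and 22 a higher mean in CLA pools, where 53.2% of all 9155 genes had a lower mean.

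Among 6 measured sugar transporters outside the SLC2A5 group, 4 had a lower and 2 a higher mean, with a median difference of -0.049 against -0.010 over all genes. SLC2A6 encodes GLUT6, a transporter of inner membranes found in leukocytes. It differed by -0.25 ± 0.11 SE (limma adjusted p = 0.528), with 4 CLA pools between 5.56 and 5.62, CLA pool 3 at 6.11 and control pools between 5.87 and 6.07. Of the leukocyte markers, those of T and NK lymphocytes had a lower mean in CLA pools for 7 of 7 measured genes (median -0.15), with a mean level of 6.11 to 6.53 in control pools and 6.004 to 6.266 in CLA pools. Kupffer cell and macrophage markers had a lower mean for 6 of 7 (median -0.050), at 9.38 to 9.77 in control pools and 9.34 to 9.67 in CLA pools. B lymphocyte and neutrophil markers each had 2 lower and 2 higher of 4, none of these genes passed the adjusted test, and their part in the SLC2A6 values was not tested. SLC5A9, a sodium-coupled transporter of mannose and fructose, differed by 0.21 ± 0.12 SE (limma adjusted p = 0.658). The insulin-responsive transporter gene SLC2A4 differed by -0.12 ± 0.09 SE (limma adjusted p = 0.722).

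In the list of fructose and polyol metabolism 8 of 10 measured genes had a lower mean, with a median of -0.071, and 0 had an unadjusted p under 0.05. The aldolases ALDOC and ALDOA differed by -0.13 ± 0.07 SE and -0.15 ± 0.09 SE (limma adjusted p = 0.606 and 0.680). Glycerate kinase, GLYCTK, which acts on a product of fructose breakdown, differed by 0.16 ± 0.09 SE (limma adjusted p = 0.661) and by -0.01 at its second probe set. In the list of hexose phosphorylation and interconversion 6 of 13 had a lower mean, with a median of 0.012. That median turned to -0.024 after quantile normalization, -0.012 after cyclic loess normalization, -0.041 with array weights and -0.034 with all probe sets of each gene averaged. Leaving out control pool 2 or 5, or CLA pool 2 or 4, also made it negative, the lowest being -0.069. The hexokinase genes HK1 and HKDC1 differed by -0.13 ± 0.10 SE and -0.15 ± 0.13 SE (limma adjusted p = 0.750 and 0.781), and UGP2, which makes UDP-glucose, by -0.10 ± 0.12 SE (limma adjusted p = 0.852).

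In the glycolysis list, from phosphofructokinase on, 13 of 17 genes had a lower mean, with a median of -0.022 that turned to 0.009 after subtraction of array medians. ENO2, an enolase best known from neurons and dim here, differed by -0.25 ± 0.09 SE (limma adjusted p = 0.462). The phosphofructokinases PFKL, the liver type, and PFKP differed by -0.16 ± 0.07 SE (limma adjusted p = 0.553) and -0.26 ± 0.12 SE (limma adjusted p = 0.568). LDHA, lactate dehydrogenase A, was singled out after its values were seen: at Bt.13881.1.S1_at every CLA pool lay above the control pools, which held for 1.18% of all probe sets, with a difference of 0.39 ± 0.08 SE (limma adjusted p = 0.272). Its other probe sets, the brightest among them, differed by 0.20 ± 0.20 SE and -0.06 ± 0.08 SE.

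In the list of sugar sensing and its targets 9 of 16 genes had a lower mean, with a median of -0.007 that turned to 0.024 after subtraction of array medians and 0.013 with array weights. It was also positive when control pool 2 or 4, or CLA pool 2 or 3, was left out, up to 0.016. MLXIP (MondoA), a sugar-responsive transcription factor, read 8.19, 8.06, 8.09, 8.30 and 8.03 in control pools 1 to 5 and 7.79, 7.79, 7.92, 7.90 and 7.93 in CLA pools 1 to 5. Every CLA pool lay below the control pools, which held for 0.791% of all probe sets, and the difference was -0.27 ± 0.07 SE (limma adjusted p = 0.368). MLXIPL (ChREBP), the carbohydrate-responsive factor of hepatocytes, differed by -0.24 ± 0.13 SE (limma adjusted p = 0.624) and by -0.22 ± 0.18 SE at its second probe set. MLX, the partner of both, differed by -0.06 ± 0.10 SE. KLF10, a factor that sugar induces, differed by 0.17 ± 0.13 SE (limma adjusted p = 0.742) and by 0.24 ± 0.29 SE at its second probe set.

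**Figure D5:**
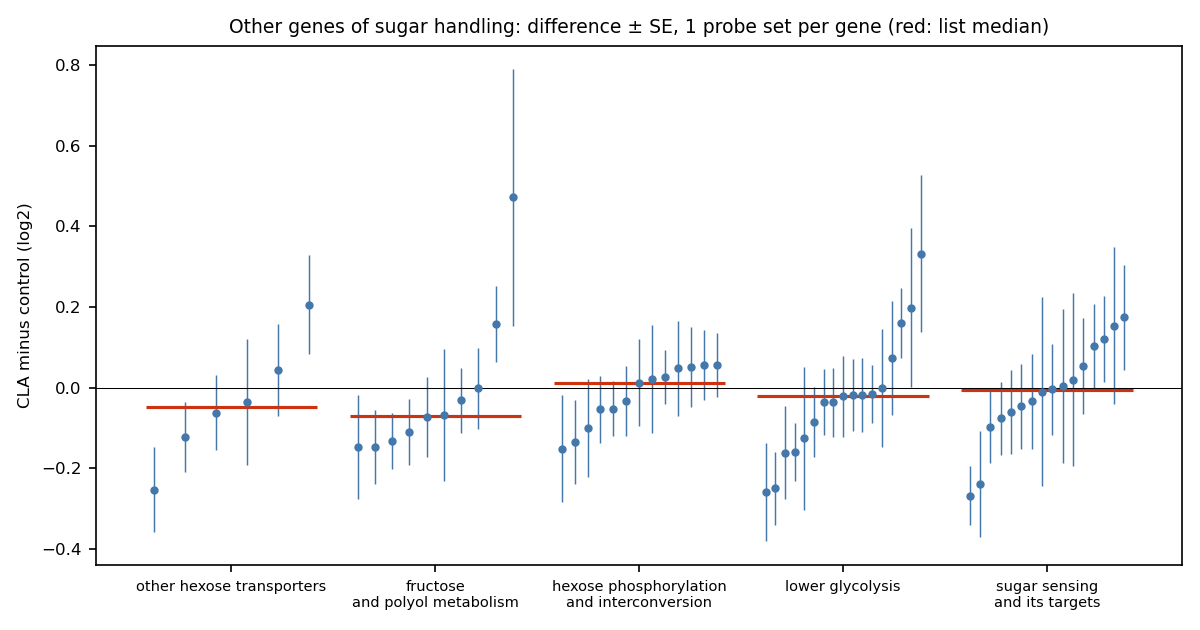
Difference CLA minus control (vertical axis, log2) with its SE for the measured genes of 5 lists, 1 point per gene sorted within its list, with the list median in red. The list medians lie between -0.071 and 0.012, and 0 of the 62 genes passed the adjusted test.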

How the data were processed

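The deposited values were log2 expression per probe set and array, normalized by the authors; Affymetrix Expression Console 1.1 and RMA are named, per the submitters' processing notes, with their order and settings not given in the sources used here. They were used as deposited, with 2 decimals. Of 24128 probe sets, 112 manufacturer controls were left out. Names came from the platform annotation: 13292 probe sets had 1 symbol, 86 several and 10638 none. The gene identifiers of 13263 were found in the RefSeq table of assembly ARS-UCD2.0, with 0 symbols differing. No coordinates are given, since no genome build was named.

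Sample titles gave groups and pool numbers. Differences, CLA minus control, and their SE come from limma 3.58.1 (R 4.3.3; lmFit, then eBayes) run over 10 arrays and 24016 probe sets, with Benjamini-Hochberg adjustment over all of them. The fit was tested on simulated data. Relations over pools used deviations from group means and exact permutations within groups. Values carry no detection calls, and precision is limited by the number of arrays.

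The 7 genes and the lists were chosen with earlier results of these data known. Named outside the 7 were the 3 genes of smallest p per list and the 5 most and 3 least like SLC2A5. LDHA, MLX and the genes of large spread are given outside this rule. Alternatives were each pool left out, the pool number as a block, quantile, median and cyclic loess scaling, array weights, a filter on the dimmest 30%, eBayes with trend and robust options, and averaging all probe sets of each gene. Pools of the same number did not deviate together (correlations from -0.086 to 0.092). That cannot exclude a pairing by number, which the sample titles neither give nor deny. Biopsies of other weeks were not analysed here.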

Additional observations from a re-analysis of the deposited data

Results flagged for a closer look

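Groups of pools were checked over part of the probe sets named here. In 5 of 72 groups checked, 1 pool stood apart from the other 4 of its group. The gap was above Dixon's critical value of 0.710 of the range. Chance alone marks about 1 in 20 groups. SLC2A8 in CLA pool 2 was 6.53, beside 6.09 to 6.20 in the other CLA pools. KHK at its brightest probe set was 12.35 in CLA pool 5, beside 11.94 to 12.03. SLC2A6 in CLA pool 3 was 6.11, beside 5.56 to 5.62. SLC5A9 in CLA pool 2 was 7.01, beside 6.36 to 6.45, and UGP2 in the same pool was 12.14, beside 11.53 to 11.67. The second probe sets of KLF10, MLXIPL and GLYCTK were not among the groups checked, and each also held a pool that stood apart. KLF10 there was 5.09 in CLA pool 2, beside 6.47 to 6.70 in the other CLA pools. MLXIPL there was 6.54 in CLA pool 2, beside 7.13 to 7.36. GLYCTK there was 5.03 in control pool 5, beside 5.91 to 6.26 in the other control pools. In neither group did an SLC2A5 probe set have such a pool.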

How the results depend on the processing

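The SLC2A5 difference of -1.43 at Bt.19805.1.A1_at lay between -1.72 and -1.16 when single pools were left out, and between -1.43 and -1.28 under the other alternatives. Differences of all 12 probe sets moved by less than 1 SD. With the pool number as a replicate block the SLC2A5 difference was again -1.43 and 0 probe sets passed the adjusted test; the numbers are not known to pair pools. In every alternative 0 passed, while the count at an unadjusted p under 0.05 ranged from 1499 to 2297. The count of probe sets with every CLA pool above the control pools, 283, was 452 after subtraction of array medians and 335 to 456 with a pool left out. The count with all CLA pools below, 190, was 102 after subtraction of array medians, 107 without the dimmest 30% and 276 to 469 with a pool left out, where fewer pools make separation easier. The number of gene pairs past the adjusted test, 1, was 0 after quantile normalization, 0 with all probe sets of each gene averaged, and 0 to 2 with a pool left out; the cause was not tested. List medians moved by less than the spread between pools. Signal over background was not known per probe set, which limits SLC2A3 and the dim probe sets of SLC2A5 and SLC2A2 most.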
